A study of Mus musculus with 12 samples.

Results

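Chemokine ligands are small secreted or membrane-bound proteins that attract leukocytes. Here 35 genes for them were measured in bulk cultures seeded with bone marrow cells sorted as mesenchymal, with or without hematopoietic cells. The members were all probe sets whose only gene symbol in the platform annotation was Ccl or Cxcl followed by a number and an optional letter, or Cx3cl1, Xcl1, Pf4 or Ppbp. This gave 53 of 45037 probe sets and 35 of 18193 genes. The rule used no measured value, but earlier results of these data were known when it was chosen. A further 4 probe sets that list a chemokine among several symbols were not members. A gene is given here by its brightest probe set, and 13 of the 35 genes had more than 1.

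The study asked how hematopoietic stem cells (HSCs) act on mesenchymal stem cells (MSCs). MSCs were Sca-1+, Pdgfr-α+ cells and HSCs were Lin-, Sca-1+, c-Kit+ cells, both sorted from the bone marrow of C57BL/6 mice aged 6 weeks and labelled male. For its co-cultures of sorted cells, the paper describes MSCs of EGFP-expressing transgenic mice and HSCs of C57BL/6 mice. The MSC and HSC co-culture group held 6 samples seeded with 3000 MSCs and 7000 HSCs per well, and the MSC-only group held 6 samples without HSCs, all taken on day 6 and measured on 1 Affymetrix Mouse Genome 430 2.0 array each. The labels do not say whether the HSCs of these samples touched the MSCs or sat on an insert. Nor do they say whether cells derived from the HSCs were removed before the RNA was taken. A difference between the groups is therefore one between cultures, not shown to be one within MSCs. Whether the 6 samples of a group came from separate mice is not given either, so p-values measure only the spread between these samples.

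Sex-linked genes did not follow the label male on all arrays. Xist, the RNA of the inactive X chromosome in females, lay at 13136 to 21978 on all 6 co-culture arrays and on MSC-only arrays 3 and 4, and at 60.5 to 118 on MSC-only arrays 1, 2, 5 and 6. Y-linked Eif2s3y lay at 2604 to 2845 on MSC-only arrays 1, 2, 5 and 6, at 1022 to 1331 on co-culture arrays 1, 2, 5 and 6, and at most at 13.6 on arrays 3 and 4 of both groups. Among arrays 1, 2, 5 and 6 the sex-linked signal and the group therefore cannot be told apart, while arrays 3 and 4 were alike in it, and comparisons are given also for these sets apart. Leukocyte genes were bright in both groups although the cells seeded as MSCs carried a stromal gate: Ptprc (CD45) had 11941 ± 1265 in the MSC-only group and 12044 ± 387 in the co-culture group, and the 13 measured macrophage markers had a median level at the 98.6th percentile of all genes, against 71.6 for the 13 stromal markers. Summed over each list, the macrophage markers ranged from 179265 to 245601 in the MSC-only group and from 188692 to 246888 in the co-culture group. The stromal sum ranged from 46276 to 81681 and from 42642 to 68926, and its sorting gene Pdgfra from 407 to 1464. In such bulk samples, fewer cells of a type and less RNA per cell cannot be told apart.

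Chemokines bind receptors of the G protein-coupled family and set up gradients along which leukocytes move. CC and CXC ligands are named for the spacing of their first cysteines. In bone marrow, Cxcl12 from stromal cells holds HSCs and B cell precursors in their niche through its receptor Cxcr4, while macrophages and monocytes make many of the CC ligands. Related ligands lie side by side in gene clusters.

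Levels are signals in arbitrary units, scaled by the authors to a like mean on each array. Signal also depends on the probe sequences of a probe set, so ranks between genes are ranks of signal. The 35 ligands spread over the whole range of the array, with a median at the 45.5th percentile of all genes, 6 above the 90th and 21 below the 50th. The 6 brightest were Pf4 at the 99.1st percentile, Ccl6 at the 98.7th, Ccl9 at the 97.2nd, Ccl3 at the 95.1st, Cxcl12 at the 92.7th and Ccl4 at the 92.5th. In the order of signal the ranges of neighbours overlapped, and a clear step lay only between Ccl7 (1486 to 2424) and Ccl12 (171 to 876). In all, 20 ligands had a mean signal of at least 100 and 15 a lower one.

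**Figure D1:**
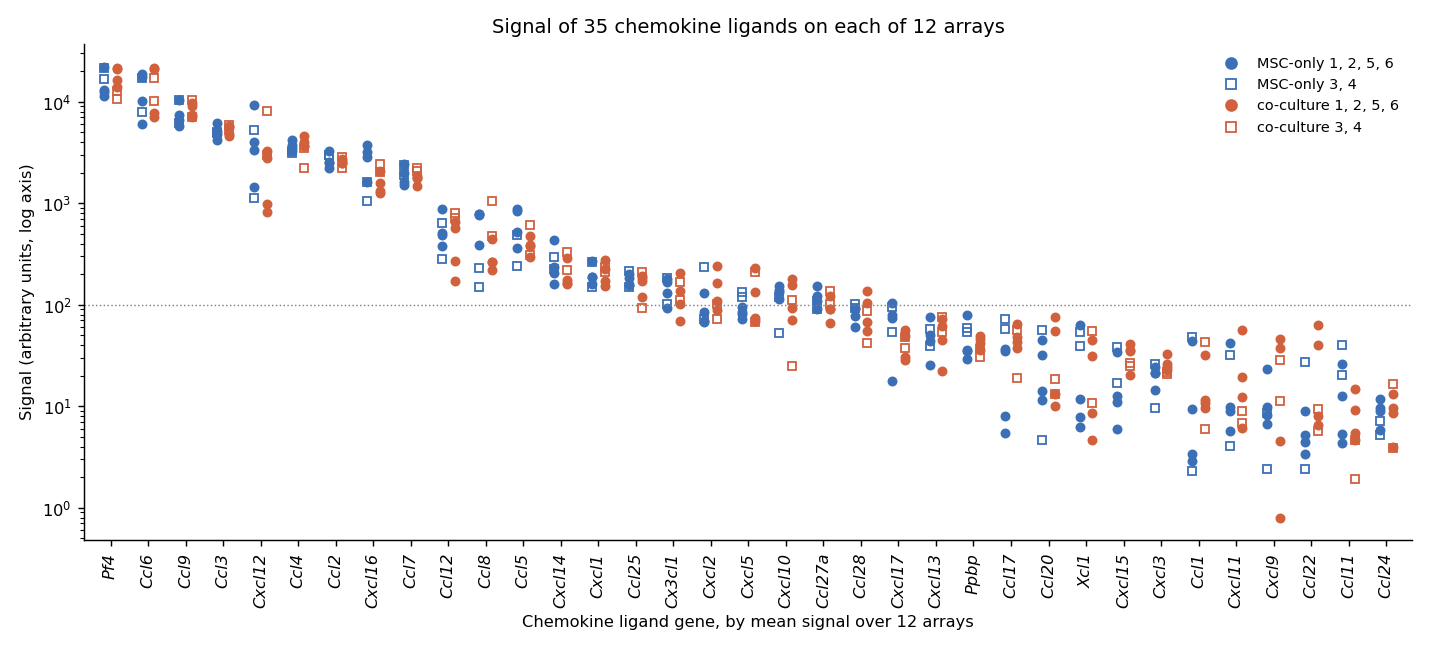
Signal (log axis, arbitrary units) of the 35 chemokine ligand genes on each of 12 arrays, ordered by mean signal, with MSC-only arrays in blue, co-culture arrays in orange and arrays 3 and 4 as open squares. The dotted line marks a signal of 100. The groups overlap for every gene, from Pf4 (mean 16106) down to Ccl24 (mean 8.69), and Cxcl12 has the widest scatter among the bright ligands.

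No chemokine ligand passed the test between co-culture and MSC-only arrays. With limma and Benjamini-Hochberg adjustment over all probe sets, 0 of 53 member probe sets passed an adjusted p of 0.05, where 2 of 45037 (0.00444%) passed in all. At an unadjusted p under 0.05, 1 member probe set was higher in the co-culture group (2.81% of all probe sets) and 0 were lower (1.55% of all). That split over all probe sets, 1264 higher and 700 lower, was 918 and 1010 after quantile normalization and 893 and 1065 after median centring. On 0 member probe sets did every co-culture array exceed every MSC-only array (0.124% of all), and on 0 did every one lie below (0.0733% of all). The smallest adjusted p of a member was 0.553, and the other 52 member probe sets had values of at least 0.99. Of the 35 genes, the co-culture mean was higher for 17 and lower for 18, with a median difference of -0.01 on the log2(signal + 16) scale against 0.01 over all genes, and 27 lay within 1 standard error (SE) of 0. Over all genes, 53.2% had a higher co-culture mean. Directions in the groups of genes given below were not tested against this share. Among the 20 ligands with a mean signal of at least 100, 13 were lower and the median was -0.09, against 50.8% lower and a median of -0.0014 over all 10180 such genes. Without arrays 3 and 4, 0 member probe sets passed (0.0178% of all did) and the smallest adjusted p of a member was 0.518. There 3 member probe sets were higher (4.02% of all) and 4 lower (2.83% of all) at an unadjusted p under 0.05. A miss of the threshold does not show equal levels, since the SE of single ligands reached 0.61 on the log2 scale.

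**Figure D2:**
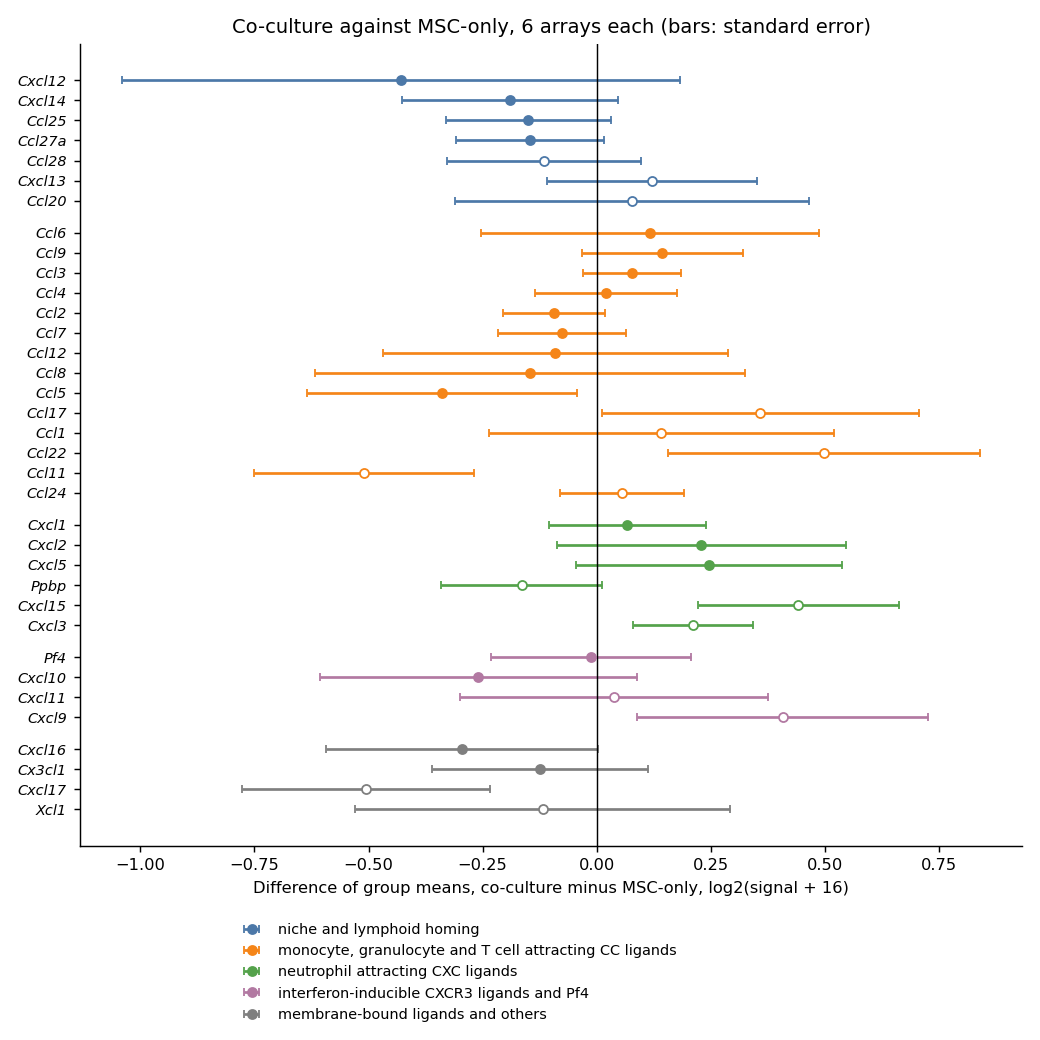
Difference of group means, co-culture minus MSC-only, on the log2(signal + 16) scale with its standard error for the 35 ligands, grouped and coloured by role. Filled circles have a mean signal of at least 100. Differences run from -0.51 (Ccl11) to 0.50 (Ccl22), and no ligand passed the adjusted threshold.

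The niche and lymphoid homing ligands numbered 7, of which 2 were higher and 5 lower in co-culture by their means, with a median difference of -0.15 and 0 past the test. Cxcl12 stood at 9227, 3368, 5308, 1136, 4056 and 1441 on MSC-only arrays 1 to 6. On co-culture arrays 1 to 6 it stood at 986, 3279, 8196, 2984, 2770.1 and 829. The groups overlapped over nearly their whole range, although 5 of 6 co-culture arrays lay below the 4 highest MSC-only arrays. The means were 4089 ± 2971 and 3174 ± 2673 (SD, n = 6), a difference of -0.43 with an SE of 0.61 on the log2(signal + 16) scale. Within arrays 3 and 4 the difference was 1.0, and within arrays 1, 2, 5 and 6 it was -1.14. A second bright Cxcl12 probe set followed the first over the arrays (r = 1.0 of deviations from group means), and a further one was dim at a mean of 19.3.

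The promoters of Cxcl12, of Ccl12, which varied with it over the arrays (given with the co-variation), and of Ccl6 and Ccl9, chromosomal neighbours that were mostly high on different arrays, are shown next, as the 250 bases before the start of the RefSeq transcript in build GRCm38.p6, 5′ to 3′ on the gene's strand. Capitals mark matches on either strand to 5 motifs, chosen after the values were seen: kappaB, GAAANNGAA for interferon response factors, TGANTCA for the AP-1 factors, TTGCNNAA for C/EBP factors and the basal promoter box TATAAA, here called the TATA motif. Cxcl12 lies at chr6:117168285-117168534 (plus strand), Ccl12 at chr11:82101595-82101844 (plus strand), Ccl6 at chr11:83593088-83593337 (minus strand) and Ccl9 at chr11:83578637-83578886 (minus strand).
Cxcl12: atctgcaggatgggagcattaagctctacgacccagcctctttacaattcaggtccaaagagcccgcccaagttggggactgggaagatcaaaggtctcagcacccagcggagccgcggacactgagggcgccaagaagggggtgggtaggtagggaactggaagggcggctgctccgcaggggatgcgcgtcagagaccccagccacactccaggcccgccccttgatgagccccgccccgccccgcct
Ccl12: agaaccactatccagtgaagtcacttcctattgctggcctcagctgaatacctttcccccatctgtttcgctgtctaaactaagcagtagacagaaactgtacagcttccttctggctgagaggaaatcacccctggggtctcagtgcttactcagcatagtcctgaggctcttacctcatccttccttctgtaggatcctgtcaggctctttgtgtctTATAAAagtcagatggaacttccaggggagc
Ccl6: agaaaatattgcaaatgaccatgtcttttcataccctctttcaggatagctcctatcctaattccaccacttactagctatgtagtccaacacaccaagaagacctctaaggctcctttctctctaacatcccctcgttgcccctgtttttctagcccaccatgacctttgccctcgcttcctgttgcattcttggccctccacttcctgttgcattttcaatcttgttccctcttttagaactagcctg
Ccl9: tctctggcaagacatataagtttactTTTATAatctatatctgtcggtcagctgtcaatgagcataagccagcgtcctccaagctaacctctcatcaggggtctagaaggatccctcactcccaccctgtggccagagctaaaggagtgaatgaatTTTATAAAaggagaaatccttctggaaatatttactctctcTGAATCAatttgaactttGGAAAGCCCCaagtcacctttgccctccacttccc

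Cxcl12 and Ccl6 had no match in this window, Ccl12 had 1 to the TATA motif starting at base -31 from the transcript start, and Ccl9 had a kappaB match at -35, an AP-1 match at -53 and TATA matches at -224, -94 and -92, the last pair overlapping. RefSeq promoters were found for 25 of the 35 ligands, 28 promoters in all. The kappaB motif, bound by NF-κB factors that act in inflammation, was held by 6 of 28 against 3.9% of 32851 promoters. The TATA motif was held by 10 of 28 against 12.4% of all, the interferon motif by 5 of 28 against 7.13%, AP-1 by 4 of 28 against 6.75% and C/EBP by 4 of 28 against 9.56%. In the C/EBP count, 1 site before Ccl27a lies in overlapping promoters, at -213 and at -138, and is counted for each. The kappaB matches lay before Ccl9, Ccl20, Cxcl1, Cxcl2, Cxcl3 and Cxcl10. A match is a run of letters, and binding was not measured.

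The other ligands of this group were far dimmer. Cxcl14 differed by -0.19 (SE 0.24), Ccl25, the gut and thymus ligand of Ccr9, by -0.15 (SE 0.18), and Ccl27a and Ccl28, skin and mucosal ligands of Ccr10, by -0.15 and -0.12 (SE 0.16 and 0.21). Cxcl13, which draws B cells into follicles, differed by 0.12 (SE 0.23) at a signal of 22.4 to 76. Ccl20, the ligand of Ccr6, differed by 0.08 (SE 0.39) at 4.7 to 76.1.

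The CC ligands that attract monocytes, granulocytes and T cells were the largest group and held 4 of the 6 brightest members. Of 14 genes, the co-culture mean was higher for 8 and lower for 6, the median difference was 0.04, and 0 passed the test. Ccl6, a myeloid ligand of Ccr1, had 18624, 10089.9, 17095, 7878, 17650.1 and 6029 on MSC-only arrays 1 to 6. In co-culture it had 7716, 21165, 17084, 10179, 21619 and 7143. Each group held 3 arrays at 17084 or above and 3 at 10179 or below, and the difference of 0.12 (SE 0.37) was small beside that split.

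Ccl9, its neighbour on the chromosome and also a Ccr1 ligand, had 6635, 10394, 6151, 10353, 5826 and 7371 on the MSC-only arrays. The co-culture arrays gave 9049, 7108, 7035, 10434, 7428 and 9784. Its high arrays were mostly the low ones of Ccl6, and the groups differed by 0.14 (SE 0.18). Ccl3, a macrophage inflammatory protein, had 5143, 4173, 5084, 4945, 6128 and 4800.5 in the MSC-only group. Its co-culture signals were 4605, 5767, 5234, 5836, 5582 and 4825. This was the steadiest of the bright ligands, with a difference of 0.08 (SE 0.11). Ccl4, a macrophage inflammatory protein encoded next to it, had 4154, 3253, 3123, 3257, 3774 and 3498 in the MSC-only group. In co-culture Ccl4 had 3973, 4633, 2248, 3512, 3672 and 3704, with array 3 alone below all controls, and the difference was 0.02 (SE 0.15).

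The ligands of monocytes and T cells around Ccl2 lie in a second cluster (Ccl2, Ccl7, Ccl11, Ccl12, Ccl8 and Ccl1 in this order of coding genes). Ccl2, the main ligand of Ccr2, ranged over 2218 to 3293 (median 2775) in the MSC-only and 2244 to 2823 (median 2573) in the co-culture group, and differed by -0.09 (SE 0.11). Ccl7 ranged over 1527 to 2424 (median 1937) and 1486 to 2207 (median 1828), with a difference of -0.08 (SE 0.14). Both were even over the arrays, unlike Ccl12 and Ccl8 beside them.

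Ccl12, a further ligand of Ccr2, had 876, 487, 639, 282, 511 and 379 on the MSC-only arrays. Its co-culture signals were 171, 565, 807, 721, 647 and 272. Means were 529 ± 209 and 530.4 ± 255, nearly equal, while single arrays differed 5.13-fold from lowest to highest. Ccl8, a ligand of Ccr8 in mice, had 390.3, 784, 230.4, 148, 788 and 762 in the MSC-only group. In co-culture it had 262, 264, 1054, 479, 446 and 219. Here 3 MSC-only arrays sat between 762 and 788 and co-culture array 3 lay above all others, and the difference was -0.15 (SE 0.47). It was 1.85 within arrays 3 and 4 and -1.15 within arrays 1, 2, 5 and 6.

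Ccl5, which draws T cells, had 366, 844, 238, 492, 519 and 884 on the MSC-only arrays. The co-culture arrays had 298, 474, 307, 614, 379 and 387. MSC-only arrays 2 and 6 were the highest and MSC-only array 3 the lowest, and the difference was -0.34 (SE 0.30, limma adjusted p = 1.0). Ccl11, the eosinophil attractant eotaxin, had 12.5, 25.9, 39.9, 20.5, 4.3 and 5.3 in the MSC-only group. Its co-culture signals were 4.6, 9.1, 4.6, 1.9, 14.8 and 5.5. All 12 values were dim and the groups overlapped, with a difference of -0.51 (SE 0.24, limma adjusted p = 1.0), the one with the smallest p among the brightest probe sets of the ligands. Ccl22, a ligand of Ccr4 on T helper and regulatory cells, had 5.2, 8.9, 27, 2.4, 3.4 and 4.4 in the MSC-only group. In co-culture Ccl22 had 39.8, 8.0, 5.7, 9.3, 6.5 and 63. Only co-culture arrays 1 and 6 exceeded the highest control, and the difference was 0.50 (SE 0.34, limma adjusted p = 1.0). The remaining dim ones were Ccl17, which shares Ccr4, with 0.36 (SE 0.35), the Ccr8 ligand Ccl1 with 0.14 (SE 0.38) and the eotaxin Ccl24 with 0.06 (SE 0.14).

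The neutrophil attracting CXC ligands, which act through Cxcr2 or related receptors, were near the middle of the range or below it. Of 6 genes, 5 were higher and 1 was lower in co-culture, beside 53.2% higher over all genes. The median difference was 0.22, and 0 passed. Cxcl1, Cxcl2 and Cxcl5 had signals of 150.4 to 276, 67.8 to 241 and 67 to 229.5 over the 12 arrays, and differences of 0.07, 0.23 and 0.25 (SE 0.17, 0.32 and 0.29). Cxcl2 differed by -0.56 within arrays 3 and 4 and by 0.63 within arrays 1, 2, 5 and 6. Cxcl15, a lung ligand, had 6.0, 12.7, 38.5, 16.9, 34.1 and 11 in the MSC-only group. Its co-culture signals were 35.3, 40.8, 24.8, 26.8, 35.9 and 20.4. The MSC-only arrays spread further down and reached nearly as high, and the difference was 0.44 (SE 0.22, limma adjusted p = 1.0). Cxcl3 had 14.6, 21.1, 26, 9.6, 21.2 and 24.6 on the MSC-only arrays. On the co-culture arrays it had 22.6, 26.2, 21.8, 20.6, 24.3 and 32.7. The difference was 0.21 (SE 0.13, limma adjusted p = 1.0), and co-culture arrays 2 and 6 exceeded all controls. Ppbp, the precursor of platelet neutrophil-activating peptide, differed by -0.16 (SE 0.18).

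Pf4 and the interferon-inducible ligands of Cxcr3 included the brightest ligand and some of the dimmest. Pf4 (platelet factor 4), a megakaryocyte product that mouse macrophages also make, had 22224, 13177, 21353, 16644, 11399.7 and 12379 on MSC-only arrays 1 to 6. On the co-culture arrays it had 16476, 21301, 12776, 10693, 20936 and 13914. Means of 16196 ± 4687 and 16016 ± 4373 (SD, n = 6) differed by -0.01 (SE 0.22), by -0.69 within arrays 3 and 4 and by 0.33 within the other arrays. The 6 measured megakaryocyte and platelet genes listed beside it lay at a median percentile of 36.5. Cxcl10 differed by -0.26 (SE 0.35) at 25.1 to 179, and Cxcl9 by 0.41 (SE 0.32) at 0.80 to 45.9.

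Cxcl11 had the one member probe set with an unadjusted p under 0.05, which is not its brightest. It read 1.8, 12, 10.4, 5.5, 1.9 and 10.0 on the MSC-only arrays. On the co-culture arrays it read 28.7, 19.8, 23.5, 25.7, 26.8 and 11.8, so 5 of 6 exceeded every control. The difference was 0.76 (SE 0.16, limma adjusted p = 0.553), with 0.77 within arrays 3 and 4 and 0.76 within the others. The brightest Cxcl11 probe set differed by 0.04 (SE 0.34), and the pair did not vary together over the arrays (r = -0.08). Both read 56 or lower on every array.

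Membrane-bound and remaining ligands numbered 4, all with a lower mean in co-culture (median difference -0.21) and 0 past the test. Cxcl16, a transmembrane ligand that also takes up oxidized lipids, ranged over 1043 to 3731 (median 2231) in the MSC-only and 1258 to 2419 (median 1806) in the co-culture group. It differed by -0.30 (SE 0.30), by 0.75 within arrays 3 and 4 and by -0.82 within the others. Cx3cl1 (fractalkine), the membrane-tethered ligand of Cx3cr1 on monocytes, ranged over 92.2 to 183 (median 149) and 69 to 206 (median 124) and differed by -0.12 (SE 0.24). Cxcl17, a mucosal ligand, had 104, 78.4, 54.4, 95.6, 73.6 and 17.9 in the MSC-only group. Its co-culture signals were 56.5, 28.4, 37.2, 47.7, 48.8 and 30.6. The groups overlapped, with 4 MSC-only arrays above the co-culture range and 1 below it, and the difference was -0.51 (SE 0.27, limma adjusted p = 1.0). Xcl1 (lymphotactin) differed by -0.12 (SE 0.41).

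Differences within the sets of arrays did not always share their sign. For 21 of the 35 ligands, and for 12 of the 20 brighter ones, the sign within arrays 3 and 4 was opposite to that within arrays 1, 2, 5 and 6. The share over all genes was not counted, so this is not shown to be a trait of the ligands. Differences close to 0 are counted too, such as 7.44e-06 for Cx3cl1 within arrays 3 and 4. With 2 arrays per group in the first set, 0 member probe sets passed there.

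The genes around the ligands were likewise not called. Of 21 measured chemokine receptors, 13 were higher and 8 lower in co-culture by their means and 0 passed. Cxcr2, the receptor of the neutrophil ligands, had the smallest p, with 10.5 ± 5.79 against 30.4 ± 11.8 (difference 0.79, SE 0.20, limma adjusted p = 0.734), both dim. Cxcr4, the receptor of Cxcl12, ranged over 977 to 2517 (median 1508) and 1119 to 1880.2 (median 1538). Of 16 genes that induce chemokines, such as the NF-κB and interferon factors, 8 were higher, 8 lower and 0 passed, Stat2 having the smallest p (difference -0.41, SE 0.17). Of 14 genes for proteases and proteoglycans that cut or present chemokines, 4 were higher, 10 lower and 0 passed, Elane (neutrophil elastase) having the smallest p (difference 0.63, SE 0.22).

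Several ligands varied more between arrays of the same group than other genes of like signal. The spread is the pooled within-group SD of log2(signal + 16), ranked among all genes of like signal. Cxcl12 had an SD of 1.18, at the 99.8th percentile, and its 12 values spanned a 11.1-fold range. Ccl6 (SD 0.71) stood at the 98.8th percentile, Ccl8 (SD 0.90) at the 98.5th, Ccl12 (SD 0.72) at the 97.3th, Cxcl16 (SD 0.56) at the 97.2nd, Ccl5 (SD 0.56) at the 95.3th and Pf4 (SD 0.41) at the 94th. These were the 7 of the 20 brighter ligands above the 90th percentile, and the median of the 20 was the 86.3rd. Ccl3 (SD 0.16) and Ccl2 (SD 0.17) were in the middle, at the 54.3rd and 58.3th. High and low arrays occurred in both groups.

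**Figure D3:**
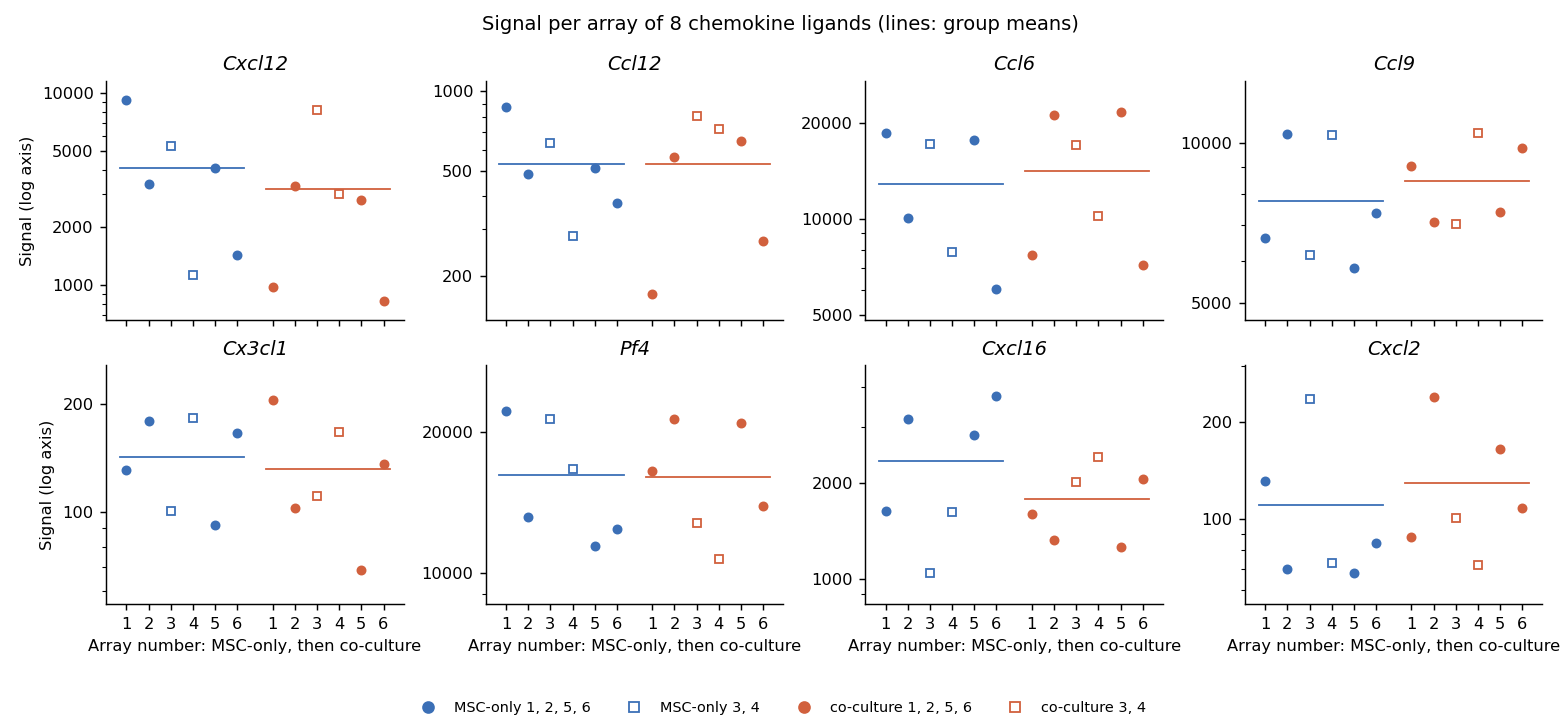
Signal (log axis) per array of 8 ligands, MSC-only arrays 1 to 6 then co-culture arrays 1 to 6, with lines at the group means and arrays 3 and 4 as open squares. The group means lie close together while single arrays differ widely, and the arrays high in Ccl6 are low in the brightest Cx3cl1 probe set.

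The arrays were ordered alike by several ligands. Ccl6 fell into 6 arrays between 17084 and 21619 and 6 between 6029 and 10179, with the gap between them taking 40.6% of its log2 range, a split noticed in the data. The high arrays were MSC-only 1, 3 and 5 and co-culture 2, 3 and 5. These were the 6 lowest in the brightest Cx3cl1 probe set (69.0 to 131 against 136 to 206), and in the macrophage markers Itgam (269 to 496 against 760.0 to 1746) and Adgre1 (8833 to 12218 against 13941 to 16686). The next Cx3cl1 probe set (mean 50.9, r = 0.40 with the first) did not divide so, with 9.5 to 81.7 against 21.5 to 107.8. The dimmer ones, with means of 18.55 and 9.3, had r = 0.80 and 0.62 with the first. Other macrophage markers went the other way, with 5 of the 6 highest arrays of Csf1r (30954 to 39489 against 22598 to 31022) and of Mrc1 (21253 to 24552 against 15451 to 21562) among those high in Ccl6. They held 5 of the 6 highest arrays of Cxcl12, Ccl12, Ccl3, Cxcl1, Cxcl2, Cxcl5, Cxcl14, Ccl25 and Ccl27a, and 1 of the 6 highest of Ccl9. Because of its gap, no correlation over all arrays is given for Ccl6, the only one of the 20 brighter ligands above a cutoff of 40%. Ccl9 and Pf4 had gaps of 33.9% and 31.4% of their ranges, under that cutoff, and their correlations are given. Within the sets of 6, its relations to Cxcl12, Cxcl1 and Cx3cl1 did not pass (smallest exact permutation p = 0.0708, adjusted over 6 relations 0.217).

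Over all 12 arrays, deviations from the group means were correlated for the 190 pairs of the 20 brighter ligands, with two-sided permutation p-values of 100000 resamples adjusted over the pairs. By Pearson's r, 10 pairs passed, 7 of them without Ccl6, and by Spearman's rho 0 passed (smallest adjusted p 0.0507, 31 pairs with an unadjusted p under 0.05). The share over pairs of other genes was not counted, so this is not shown to be a trait of the ligands. Cxcl12 and Ccl12 varied together over the arrays (r = 0.91, adjusted p = 0.0038, rho = 0.86, adjusted 0.0507), with r = 0.88 without the 2 arrays farthest from the Cxcl12 median and 0.88 without arrays 3 and 4. They lie on different chromosomes. Pf4 ran against Cxcl16 (r = -0.88, adjusted p = 0.0199, rho = -0.80, adjusted 0.0855, r = -0.90 without 2 arrays) and with Cxcl2 (r = 0.83, adjusted p = 0.0266, rho = 0.79, adjusted 0.0931, r = 0.82 without 2 arrays). Cxcl16 ran with Ccl5 (r = 0.79, adjusted p = 0.0460, rho = 0.80, adjusted 0.0855), which rested in part on 2 arrays (r = 0.54 without them), and against Cxcl2 (r = -0.77, adjusted p = 0.0496, rho = -0.66, adjusted 0.236, r = -0.70 without 2 arrays). Cxcl1 ran with Cxcl12 (r = 0.86, adjusted p = 0.0266, rho = 0.85, adjusted 0.0507, r = 0.77 without 2 arrays) and Ccl12 (r = 0.83, adjusted p = 0.0279, rho = 0.87, adjusted 0.0507, r = 0.86 without 2 arrays), but its brightest probe set followed its other probe sets only weakly (r = 0.34 and 0.19). Without arrays 3 and 4, 0 of the 190 pairs passed by Pearson's r at 8 arrays, with 39 at an unadjusted p under 0.05. The 7 pairs above kept their sign there. Some other pairs had a larger r there: Cxcl12 with Cxcl16 (-0.22 to -0.92) and Pf4 with Cxcl12 (0.20 to 0.83). Cxcl1 did so with Cxcl16 (-0.54 to -0.92) and with Pf4 (0.54 to 0.88). Others had a smaller one, such as Ccl4 with Cxcl10 (0.71 to 0.04). The arrays differ in sex-linked signal and cell type markers, which the permutations treat as alike, and their part in these relations was not tested.

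**Figure D4:**
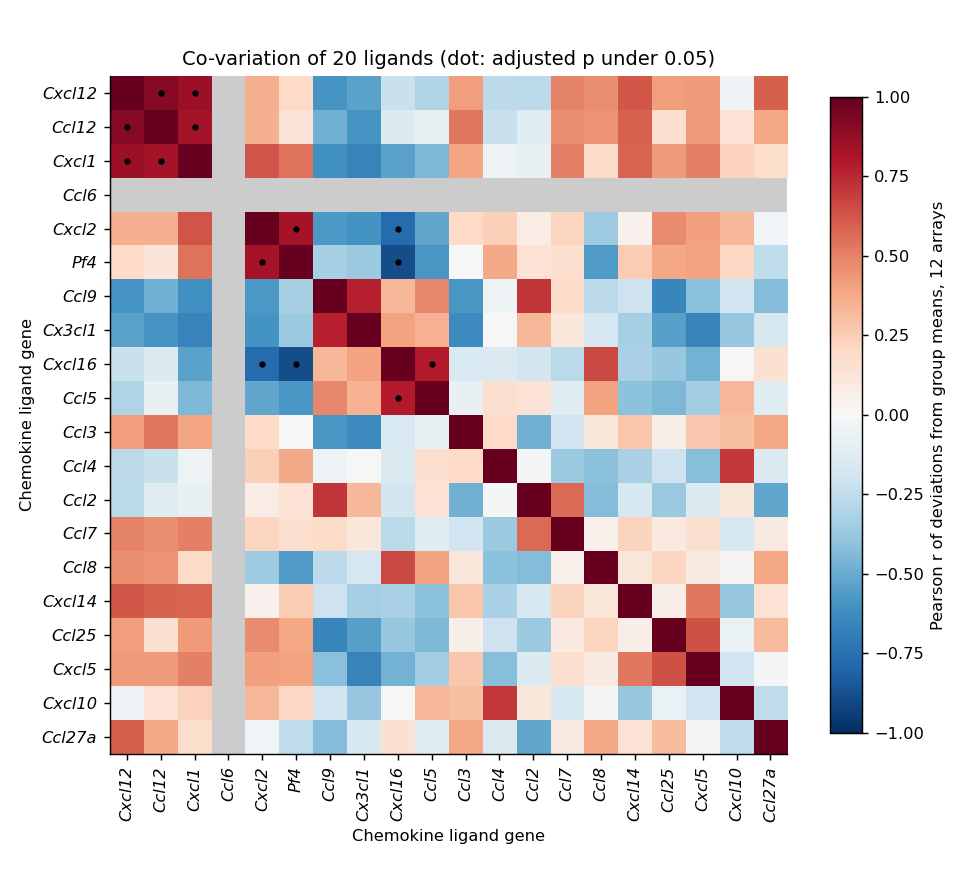
Pearson correlation, from blue (-1) to red (1), of deviations from group means over 12 arrays for the 20 ligands with a mean signal of at least 100, with dots at pairs with an adjusted p under 0.05. Ccl6, whose arrays form separate sets, is left blank. Cxcl12, Ccl12 and Cxcl1 form a red block, and Pf4 and Cxcl2 oppose Cxcl16. Over all 12 arrays Cxcl12 is only weakly related to Pf4 and Cxcl16, unlike without arrays 3 and 4.

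Neighbours on the chromosome did not all move together. Ccl6, Ccl9, Ccl3 and Ccl4 are adjacent coding genes, and the arrays high in Ccl6 were mostly low in Ccl9. Ccl9 went with the brightest Cx3cl1 probe set (r = 0.78, adjusted p = 0.0710, rho = 0.78, adjusted 0.102, r = 0.76 without 2 arrays) and did not pass. The second probe sets of Ccl6, Ccl9 and Cxcl16 followed the brightest one, with r = 0.99, 0.99 and 0.97. Among dimmer ligands with several probe sets of mean signal at least 100, r was 0.76 for Cxcl14 and 0.58 for Ccl25, and the Cxcl1 pairs ranged from 0.19 to 0.84.

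The ligands were also set against the mean of the stromal and of the macrophage markers over the arrays, 40 relations in all. Cxcl12 followed the mean of the 13 stromal markers (r = 0.92, adjusted permutation p = 0.0004, rho = 0.94, adjusted 0.0012, r = 0.89 without 2 arrays and 0.87 without arrays 3 and 4). Its r with single stromal markers ran from -0.22 for Postn to 0.96 for Col3a1. Ccl12 followed the stromal mean too (r = 0.85, adjusted p = 0.0076, rho = 0.85, adjusted 0.016, r = 0.80 without 2 arrays), and Ccl9 ran against it (r = -0.79, adjusted p = 0.0335, rho = -0.78, adjusted 0.0435, r = -0.73 without 2 arrays). Cxcl1 followed the stromal mean as well (r = 0.76, adjusted p = 0.0335, rho = 0.76, adjusted 0.0521, r = 0.81 without 2 arrays). Ccl4 followed the macrophage mean only through 2 arrays (r = 0.75, adjusted p = 0.0335, rho = 0.71, adjusted 0.0901, r = 0.27 without them).

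The single markers did not divide by list. Over 78 relations of Cxcl12, Ccl9 and Ccl12 with 26 markers, 27 passed by Pearson's r and 20 by rho. These 3 ligands had the smallest p with the stromal mean on the same arrays. Passes with single stromal markers are therefore not separate support for that relation. For these relations and for the list means, the share over other genes was not counted. Cxcl12 went with the collagen gene Col3a1 (r = 0.96, adjusted p = 0.00039, rho = 0.94, adjusted 0.0013, r = 0.93 without 2 arrays) and with the mannose receptor gene Mrc1 of macrophages (r = 0.93, adjusted p = 0.00052, rho = 0.88, adjusted 0.00481, r = 0.90 without 2 arrays). It ran against the myeloid integrin gene Itgam (r = -0.91, adjusted p = 0.00039, rho = -0.96, adjusted 0.0013, r = -0.85 without 2 arrays). Of the stromal markers, 6 of 13 passed with Cxcl12, all upward, and of the macrophage markers 4 of 13, with Mrc1 upward and Itgam, Spi1 and Adgre1 downward. Without arrays 3 and 4, r with Cxcl12 was higher for the macrophage markers Lyz2 (0.85), Csf1r (0.81), Cd68 (0.78), Fcgr1 (0.74) and Cd14 (0.73). There r stayed negative for Itgam (-0.89), Adgre1 (-0.93), Spi1 (-0.74) and Mertk (-0.85), and was -0.81 for the stromal marker Postn. No p-value was computed for these. Pdgfra, the sorting marker, passed narrowly with Cxcl12 over all 12 arrays (r = 0.68, adjusted p = 0.0485, rho = 0.55, adjusted 0.142, r = 0.61 without 2 arrays and 0.39 without arrays 3 and 4). With Ccl9, 3 of 13 stromal markers passed, all downward, and 6 of 13 macrophage markers, with Itgam and Adgre1 upward and Fcgr1, Csf1r, Lyz2 and Ctss downward. Its relation to Itgam was opposite in sign to that of Cxcl12 (r = 0.84, adjusted p = 0.00864, rho = 0.79, adjusted 0.0159, r = 0.84 without 2 arrays). Which cells held each ligand was not measured.

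**Figure D5:**
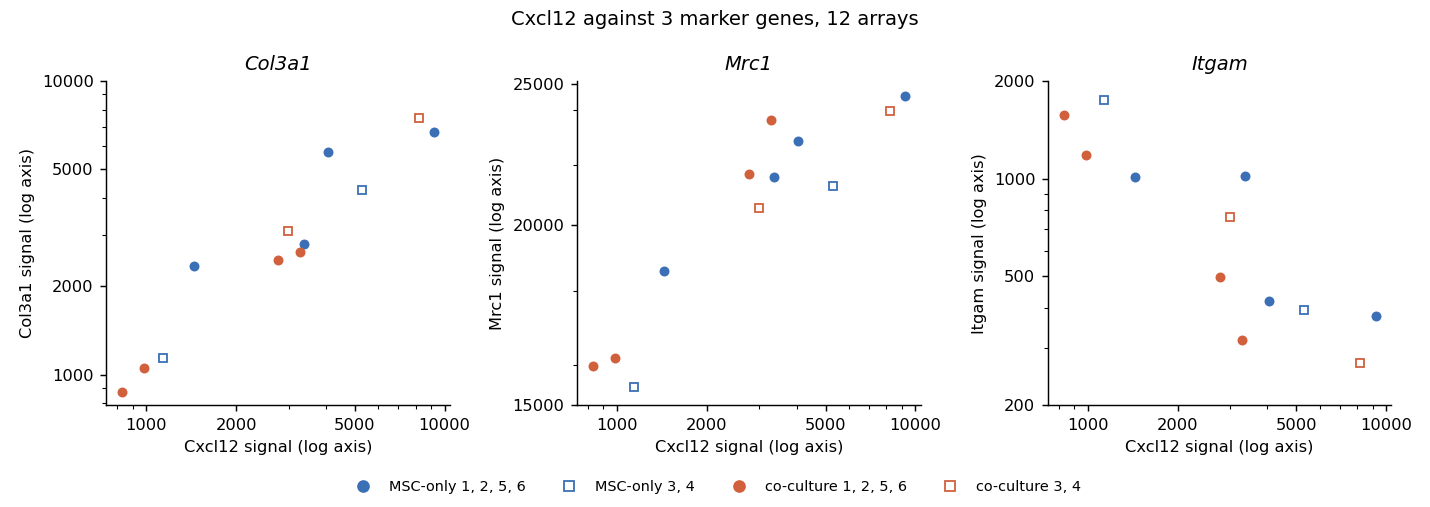
Signal of Col3a1, Mrc1 and Itgam (log axes) against Cxcl12 on the 12 arrays, MSC-only in blue, co-culture in orange, arrays 3 and 4 as open squares. Col3a1 and Mrc1 climb with Cxcl12 in both groups, and Itgam declines from 1746 to 269.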

How the data were processed

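RNA of 12 cultures was measured on Affymetrix Mouse Genome 430 2.0 arrays. Per the paper's methods, the authors ran GeneChip Operating Software, and the deposited table gives signal intensity per probe set on a linear scale, with a like mean on each array. The summary method is not given in the sources used here. Values were taken as log2(signal + 16). GEO's platform annotation names 1 gene for 34945 probe sets (34741 found in RefSeq by gene ID), several for 932 and none for 9160. The brightest probe set stood for a gene. The test was limma's (version 3.58.1, R 4.3.3) without filter or block, adjusted by Benjamini-Hochberg over 45037 probe sets at a threshold of 0.05. Members, lists and tests were chosen with earlier results of these data known. Every member may be named. All array values are given for Cxcl12, for 3 ligands per direction (those of smallest p), the 4 most variable with a mean signal of at least 100 and the 6 brightest. From the other lists, the genes with the smallest p and cell type and sex-linked markers are named. The scripts' tests were tried on simulated data. Promoters are RefSeq's (GRCm38.p6). The number of arrays limits the precision. The alternatives tried are named in the closing section.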

Additional observations from a re-analysis of the deposited data

Results flagged for a closer look

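Dixon's ratio, the gap to the nearest array over the range, was taken on linear signals and not on the log scale. Within a group of 6 arrays, 5 of 70 groups (35 ligands in both groups) held an array that stood apart, with a ratio above the 95% critical value. Chance gives about 1 in 20 only for normally distributed values, and whether the signals were so distributed was not tested. All 5 were the highest array of their group. The count is therefore not compared with chance, and whether these arrays stand apart on the log scale was not tested. Co-culture array 3 stood apart for Cxcl12 (ratio 0.667, signal 8196 against 3279 on the next array) and for Ccl8 (ratio 0.689, 1054 against 479). Co-culture array 1 did for the brightest Cxcl11 probe set (ratio 0.733, 56.0 against 19.4). MSC-only array 5 did for Cxcl9 (ratio 0.645, 23.5 against 9.90) and MSC-only array 3 for Ccl22 (ratio 0.736, 27.0 against 8.90).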

How the results depend on the processing

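No member probe set passed the adjusted threshold under any of the 24 alternatives, where the smallest adjusted p was 0.342 (without co-culture array 6). The count over all probe sets, 2 as reported, was 1 with quantile normalization, median centring, 75th percentile centring, log2(signal + 1), the methods' t-test and arrays 3 and 4 as a block. It was 0 with log2(signal + 64), a mean signal of at least 100, limma with trend and robust settings, the replicate block and arrays 3 and 4 alone, 8 without arrays 3 and 4, and 0 to 4 leaving out single arrays. The median difference of the ligands stayed between -0.09 and 0.04, within the spread between arrays, and the SD of Cxcl12 between 0.95 and 1.24. The replicate numbers did not pair the arrays: same-numbered arrays had correlations of deviations from -0.16 to 0.15, and 1 of 12 arrays correlated best with its own number. With the replicate block, an unadjusted p under 0.05 was reached by 1 member probe set upward and 1 downward, beside 3.12% and 1.63% of all probe sets. The alternatives that take arrays 3 and 4 as a block, alone or as a term in the centring were chosen after seeing the data.

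Of 190 pairs of ligands, 10 passed as reported, 6 with quantile normalization, 12 with median centring, 5 with the mean over the probe sets of a gene, 16 with centring on the replicate block, 23 with centring also on arrays 3 and 4 against the rest, 0 without arrays 3 and 4, and 2 (without MSC-only array 2) to 9 leaving out single arrays. Leaving out MSC-only arrays 1, 4 and 5 gave 4, 4 and 3, and co-culture arrays 1, 2 and 6 gave 6, 5 and 6. The cause was not tested.

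Signs of uncalled differences changed for 25 ligands under some alternative, none of them a called one. Within arrays 3 and 4 alone they were 1.0 for Cxcl12, -0.18 for Ccl4, 0.75 for Cxcl16, 0.82 for Ccl12, 1.85 for Ccl8, 0.33 for Ccl5, 0.071 for Cxcl14, 7.44e-06 for Cx3cl1, -0.56 for Cxcl2, -0.053 for Cxcl5, 0.22 for Ccl27a, -0.68 for Ccl17, -0.29 for Ccl20, -0.019 for Cxcl15, -0.38 for Cxcl11 and -0.26 for Ccl22. Without arrays 3 and 4 they were 0.33 for Pf4, 0.10 for Ccl28, 0.022 for Ppbp, 0.078 for Xcl1 and -0.018 for Ccl24. Median centring gave -0.019 for Ccl4 and -0.0020 for Cxcl11, quantile normalization -0.020 for Cxcl11 and -0.00058 for Ccl24, and the mean over probe sets 0.056 for Ccl28. Leaving out single arrays gave -0.10 to 0.10 for Pf4, -0.076 to 0.28 for Ccl6, -0.056 to 0.15 for Ccl4, -0.25 to 0.18 for Ccl12, -0.44 to 0.021 for Ccl8, -0.0087 to 0.15 for Cxcl1, -0.25 to 0.023 for Cx3cl1, -0.44 to 0.021 for Cxcl10, -0.26 to 0.020 for Ccl28, -0.15 to 0.26 for Ccl20, -0.30 to 0.074 for Xcl1, -0.031 to 0.36 for Ccl1, -0.20 to 0.23 for Cxcl11 and -0.022 to 0.12 for Ccl24.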
